A study of Rattus norvegicus with 9 samples.

Results

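The tRNA for alanine with the anticodon AGC was listed as a host of 20 of 192 distinct tRNA-derived fragments (tRFs). They come from a table of islet tRFs that the study called as changed between low-protein and chow exposure. Members were all sequences listed with the nuclear host tRNA-Ala-AGC, each kept once. They filled 22 of the 255 rows, 16 of them had no other host, and 4 were also listed with tRNA-Ala-TGC. The samples were pancreatic islets of 22-day-old male Sprague Dawley rats, isolated with collagenase and picked by hand. In the LP group (n = 4) the mothers ate a low-protein diet with 5.3% protein during pregnancy and lactation, and in the CD group (n = 5) a chow diet with 16.8% protein. LP offspring serve as a model of raised susceptibility to diabetes, and the comparison asks which tRFs of their islets differ from those of chow-exposed rats. Each sample is listed as 1 rat, littermates are not marked, and whole islets were used, so a change in the number of cells of a type and a change in RNA per cell cannot be told apart. The table holds no cell type markers, and the tissue label could not be checked against any.

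Alanine tRNAs carry alanine to the ribosome. Each mature tRNA ends in CCA, a tail that an enzyme adds after transcription and to which the amino acid is attached. Fragments that keep this tail are 3' fragments. The short ones start in or just after the T loop, the loop nearest to the 3' end, and some have been found on Argonaute proteins, the carriers of microRNAs. Longer 3' fragments reach back towards the anticodon loop, where nucleases such as angiogenin cut tRNAs under stress.

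All 20 members came from the 3' part of the tRNA. The table lists no fragment of its 5' part. Of the 20, 14 were CCA-ended and 16 to 24 nucleotides (nt) long, and a single short one (17 nt) ended 1 base before the final A. The other 5 were 36 to 40 nt long, and 2 of these ended in CCA. None was longer than 40 nt and none lay between 25 and 35 nt. Names give the host and the length, with a letter in the order of the mean level where several share a length. The members carried 4 different 3' ends, called A to D here, which differ among their last 16 bases. They are shown with capitals at the 5 positions where they differ, because the ends separate the members into families.

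A, tRNA-Ala-AGC 16a: cccGGCACctccacca
B, tRNA-Ala-AGC 16b: cccGCATCctccacca
C, tRNA-Ala-AGC 16c: cccAGCATctccacca
D, tRNA-Ala-AGC 16d: cccAGCACctccacca

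End A had 7 members, all short, and all 4 members shared with tRNA-Ala-TGC were among them. Ends C and D had 3 and 4 members, again all short. End B had 6 members, the 16-nt fragment and all 5 of the long ones. Its longest fragment holds each of the other 5, so the fragments of end B differ only in where they start and stop. They are printed because they went in opposite directions, with capitals for what each holds of the last 16 bases.

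tRNA-Ala-AGC 16b: CCCGCATCCTCCACCA
tRNA-Ala-AGC 36: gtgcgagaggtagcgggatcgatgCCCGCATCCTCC
tRNA-Ala-AGC 38: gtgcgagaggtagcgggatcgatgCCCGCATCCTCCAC
tRNA-Ala-AGC 39b: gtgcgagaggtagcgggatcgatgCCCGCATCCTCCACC
tRNA-Ala-AGC 39a: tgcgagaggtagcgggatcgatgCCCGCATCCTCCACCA
tRNA-Ala-AGC 40: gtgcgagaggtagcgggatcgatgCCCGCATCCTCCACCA

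The short fragments of end A formed a series with a common 3' end and increasingly early starts, shown here with the CCA tail in capitals.

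tRNA-Ala-AGC 16a: cccggcacctccaCCA
tRNA-Ala-AGC 17a: ccccggcacctccaCCA
tRNA-Ala-AGC 18a: tccccggcacctccaCCA
tRNA-Ala-AGC 19: atccccggcacctccaCCA
tRNA-Ala-AGC 22a: tcaatccccggcacctccaCCA
tRNA-Ala-AGC 24: gttcaatccccggcacctccaCCA

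Of the 20 members, 11 started within the last 18 bases of the tRNA. The other 9 reached the 19th base from the 3' end, which was an adenosine in all 9. In many tRNAs the conserved adenosine of the T loop is methylated, and the RNA had been treated to remove such methyl groups before the libraries were made. Bases 2 to 8, the seed by which a microRNA pairs with its targets, matched those of 1 of 693 mature rat microRNAs (RefSeq, GRCr8) in a single member, tRNA-Ala-AGC 16c, whose seed is that of rno-miR-338-3p. The match was not set against the number that arises by chance, and pairing with targets was not tested. This fragment had 2 to 14 read counts in LP samples. RefSeq annotates 92 rat genes for this tRNA on 19 chromosomes of the GRCr8 assembly, 6 for tRNA-Ala-CGC and 21 for tRNA-Ala-TGC. The table gives no positions, and which gene a fragment came from cannot be told.

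Levels are given as normalized read counts, obtained by dividing each deposited count by the size factor of its library. The members took up 1186 to 3910 counts in LP samples and 1368 to 2513 counts in CD samples. Fold changes, their standard errors (SE) and adjusted p-values come from edgeR's quasi-likelihood test over the whole table, in which a tRF was called past 2-fold and an adjusted p of 0.05. Every tRF of the table had been selected by the study as different between these same 9 samples. The calls and the separation of the groups therefore follow in part from that selection and are no independent evidence. The sizes of change tend to be too large for the same reason.

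The short tRNA-Ala-AGC fragments were lower and the long ones higher in LP islets. All 15 fragments of 16 to 24 nt were called lower, where 56.4% of the 181 tRFs tested were, and all 5 of 36 to 40 nt were called higher, where 41.4% were. All 20 passed the filter on low counts, and their adjusted p-values were 0.00178 to 0.00626. The log2 fold changes of the 14 short CCA-ended fragments were -2.69 to -1.30 with a median of -1.98, and those of the 5 long ones 1.36 to 2.43 with a median of 2.32. Over all tRFs tested the median was -1.49. The LP and CD levels did not overlap for 14 of the 15 short fragments, with LP below CD, as for 47.9% of the table. They did not overlap for 2 of the 5 long ones, with LP above CD, as for 28.6% of the table.

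**Figure D1:**
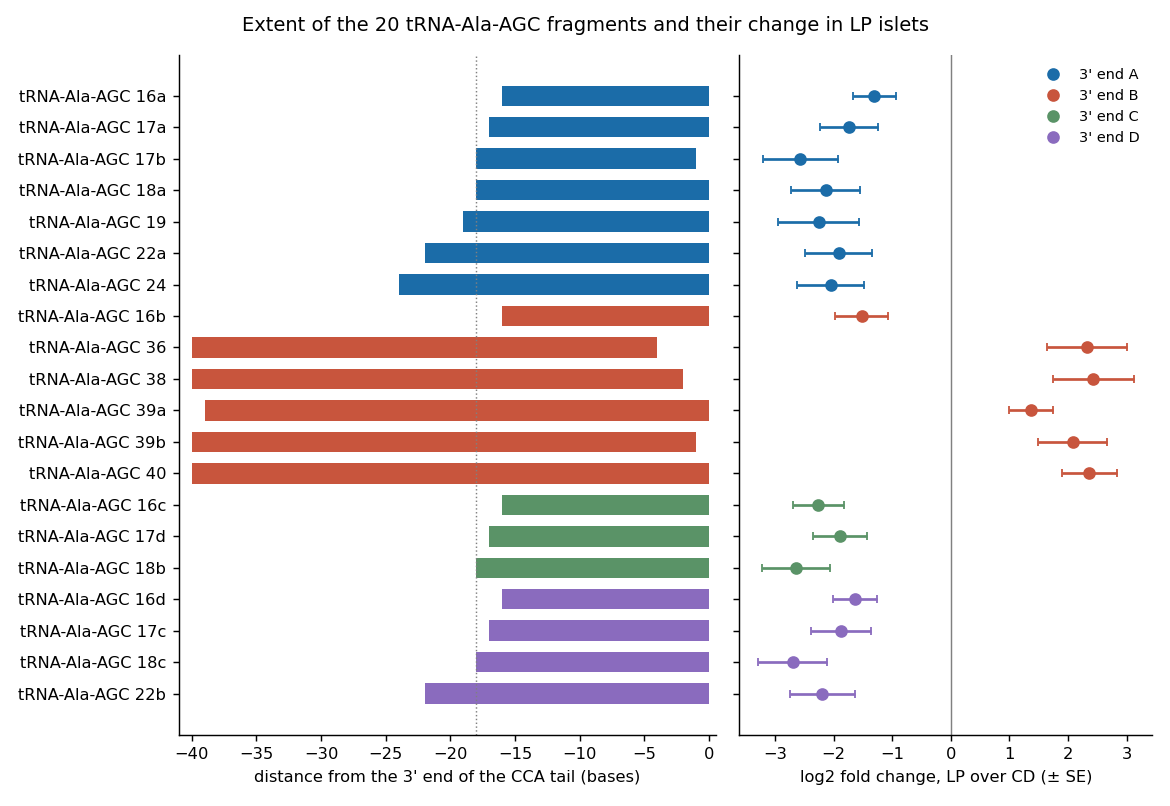
Left, extent of each of the 20 tRNA-Ala-AGC fragments as bars over the distance in bases from the 3' end of the CCA tail, grouped by 3' end (A to D); the dotted line marks 18 bases. Right, log2 fold change of LP over CD from edgeR with bars of 1 SE, negative for all 15 short fragments and positive for the 5 fragments of 36 to 40 nt, which lie at 1.36 to 2.43.

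Among the short fragments, tRNA-Ala-AGC 18a had the highest mean level. It had 61.7, 141, 126 and 150 normalized read counts in LP 1 to LP 4, against 1325, 517, 161, 377 and 254 in CD 1 to CD 5. Every LP sample was below every CD sample, and CD 1 stood far above the other CD samples. Its log2 fold change was -2.14 ± 0.59 (SE), and -1.45 without CD 1.

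tRNA-Ala-AGC 16a, which starts 2 bases later in the same end A, had 133, 165, 192 and 121 normalized read counts in LP 1 to LP 4, against 480, 266, 337, 438 and 365 in CD 1 to CD 5. The groups did not overlap, and both were tighter than for the 18-nt fragment. It had the smallest fall of the 15, a log2 fold change of -1.30 ± 0.37 (SE). tRNA-Ala-AGC 17a lay between them in sequence, with 46.6, 108, 93.6 and 95.1 normalized read counts in LP 1 to LP 4 and 618, 252, 143, 249 and 169 in CD 1 to CD 5. LP 1 was again the lowest and CD 1 the highest sample, and the log2 fold change was -1.73 ± 0.50 (SE).

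The longer starts of end A were less abundant and fell too. In normalized read counts, tRNA-Ala-AGC 19 averaged 16.1 ± 6.195 in LP (SD, n = 4) and 79.1 ± 86.3 in CD (SD, n = 5). tRNA-Ala-AGC 22a averaged 29.4 ± 8.45 in LP and 112 ± 97.9 in CD, and tRNA-Ala-AGC 24 averaged 12.4 ± 3.66 in LP and 52.5 ± 47.9 in CD. Their large CD spread came from CD 1, at 229, 280 and 138 normalized read counts. Without CD 1 the log2 fold changes of these 3 fragments were -1.33, -1.24 and -1.32, against -2.25, -1.91 and -2.05 with it, and all 3 were still called. Summed, the 3 fragments of 19 to 24 nt amounted to 0.160 ± 0.0149 (SD, n = 4) of the 3 of 16 to 18 nt in LP and to 0.183 ± 0.0633 (SD, n = 5) in CD, ranges that overlapped.

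tRNA-Ala-AGC 17b, the short fragment that lacks the last A of the tail, begins with the same base as tRNA-Ala-AGC 18a. It had 2.74, 5.98, 13.1 and 9.46 normalized read counts in LP 1 to LP 4, against 92.8, 45.1, 16.6, 77.7 and 14.5 in CD 1 to CD 5. The highest LP sample was just below the lowest CD sample. Its log2 fold change was -2.56 ± 0.64 (SE), and the lowest LP value stood for 2 counts.

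The largest falls were those of the 18-nt fragments of ends C and D, at low levels, while other members of these ends fell less. tRNA-Ala-AGC 18c of end D fell most of all members, with 4.11, 9.97, 4.13 and 7.79 normalized read counts in LP 1 to LP 4, against 76.8, 68.2, 11.6, 28.1 and 33.1 in CD 1 to CD 5. Its log2 fold change was -2.69 ± 0.59 (SE), next to -2.64 ± 0.59 for tRNA-Ala-AGC 18b of end C. The groups did not overlap for either. The 16-nt fragments of the same ends were steadier among CD samples, with 33.0 ± 7.65 (SD, n = 5) normalized read counts for tRNA-Ala-AGC 16c and 29.8 ± 4.74 for tRNA-Ala-AGC 16d. Their LP means were 6.62 ± 2.96 and 9.32 ± 2.86 (SD, n = 4), and the log2 fold changes were -2.26 ± 0.43 and -1.63 ± 0.37 (SE). tRNA-Ala-AGC 17c and tRNA-Ala-AGC 17d had log2 fold changes of -1.87 and -1.88. tRNA-Ala-AGC 22b was the only short fragment whose groups overlapped, since 8.97 normalized read counts in LP 2 exceeded the 8.31 of CD 3. Depth limits these small values, as 9 of the 14 short CCA-ended fragments had fewer than 10 counts in LP 1, 4 in LP 2, 3 in LP 3, and none in LP 4 or in any CD sample.

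**Figure D2:**
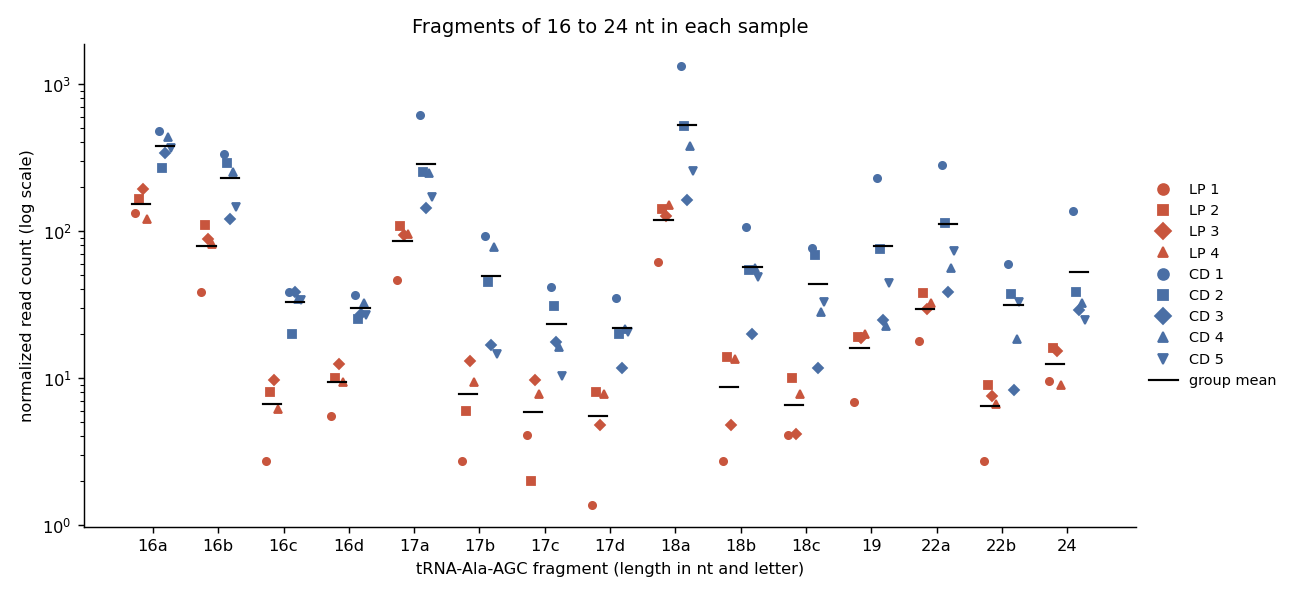
Normalized read counts (log scale) of the 15 tRNA-Ala-AGC fragments of 16 to 24 nt in each LP sample (left of each pair) and each CD sample (right), with lines at the group means. LP 1 is the lowest LP sample for most fragments. With this scaling CD 1, which has the smallest size factor (0.625), is the highest CD sample for all 15.

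The 4 ends contributed unequally to the short fragments. End A made up 77.0% ± 3.37 (SD, n = 4) of the summed level of the 14 short CCA-ended fragments in LP and 73.9% ± 4.22 (SD, n = 5) in CD, and end B 14.2% ± 2.18 in LP and 12.8% ± 3.04 in CD. Both shares overlapped between the groups. The most abundant fragments of end A, tRNA-Ala-AGC 18a, 16a and 17a, are all also listed with tRNA-Ala-TGC. Their level cannot be assigned to tRNA-Ala-AGC alone. End C made up 3.63% ± 1.29 in LP and 6.38% ± 1.39 in CD, with ranges that overlapped slightly. End D made up 5.16% ± 0.434 in LP and 7.003% ± 1.44 in CD. Every LP sample was below every CD sample, but only just, with 5.58% in LP 4 and 5.65% in CD 1.

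Within an end, the balance between 18-nt and 16-nt fragments varied more between samples than between diets. For end A the ratio of tRNA-Ala-AGC 18a to tRNA-Ala-AGC 16a was 0.464, 0.849, 0.656 and 1.23 in LP 1 to LP 4, against 2.76, 1.94, 0.479, 0.860 and 0.697 in CD 1 to CD 5. For end C it was 1.00, 1.75, 0.5 and 2.18 in LP 1 to LP 4, against 2.75, 2.72, 0.522, 1.62 and 1.42 in CD 1 to CD 5, and for end D 0.750, 1.00, 0.333 and 0.824 in LP 1 to LP 4, against 2.09, 2.70, 0.424, 0.867 and 1.23 in CD 1 to CD 5. The groups overlapped for all 3 ends. CD 1 and CD 2 had the highest CD ratios and CD 3 the lowest in each of them. Such ratios within a sample do not depend on the scaling of the libraries.

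The 5 long fragments, all of end B, rose in LP islets. tRNA-Ala-AGC 36, the most abundant, lacks the tail and the base before it. It had 648, 212, 66.8 and 787 normalized read counts in LP 1 to LP 4, against 67.2, 94.7, 25.8, 53.9 and 186 in CD 1 to CD 5. LP 1 and LP 4 were far above all other samples, while LP 3 was within the CD range. The log2 fold change was 2.32 ± 0.67 (SE).

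tRNA-Ala-AGC 38, which keeps the first C of the tail, had the largest rise of the members. It had 337, 122, 48.2 and 421 normalized read counts in LP 1 to LP 4, against 19.2, 31.9, 19.95, 22.7 and 120 in CD 1 to CD 5. CD 5 was above LP 3 and close to LP 2. The log2 fold change was 2.43 ± 0.69 (SE), and 3.30 without CD 5. tRNA-Ala-AGC 39b, which lacks only the final A, had 82.2, 29.9, 88.8 and 96.8 in LP 1 to LP 4, against 4.80, 6.60, 13.3, 18.3 and 43.4 in CD 1 to CD 5. LP 2 and CD 5 overlapped here, and the log2 fold change of 2.08 ± 0.59 (SE) was 2.75 without CD 5.

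The 2 long fragments with a complete tail separated the groups. tRNA-Ala-AGC 39a had 156, 101, 92.2 and 140 normalized read counts in LP 1 to LP 4, against 33.6, 60.5, 56.5, 48.5 and 37.2 in CD 1 to CD 5. It varied little within either group and had the smallest rise of the 5, a log2 fold change of 1.36 ± 0.38 (SE). tRNA-Ala-AGC 40 starts a single base earlier and had 61.7, 64.8, 70.2 and 154 in LP 1 to LP 4, against 6.40, 25.3, 17.5, 12.9 and 21.7 in CD 1 to CD 5. Its log2 fold change was 2.37 ± 0.47 (SE). Depth limits the lowest CD values of the long fragments too. tRNA-Ala-AGC 40 had 4 counts in CD 1, and tRNA-Ala-AGC 39b had 3 in CD 1 and 6 in CD 2.

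**Figure D3:**
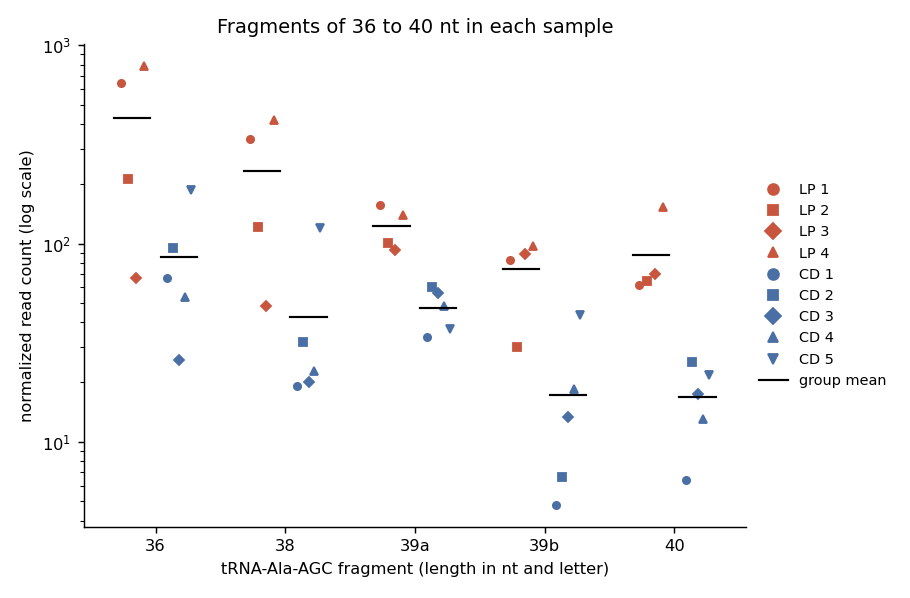
Normalized read counts (log scale) of the 5 tRNA-Ala-AGC fragments of 36 to 40 nt in each LP sample (left of each pair) and each CD sample (right), with lines at the group means. The groups are apart for tRNA-Ala-AGC 39a and tRNA-Ala-AGC 40, while CD 5 lies within the LP range for the other 3.

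Long fragments with an incomplete tail differed more between samples than those with a complete one. The 3 incomplete ones summed to 1068, 364, 204 and 1304 normalized read counts in LP 1 to LP 4, against 91.2, 133, 59.0, 94.9 and 349 in CD 1 to CD 5. The 2 complete ones summed to 218, 165, 162 and 293 in LP 1 to LP 4, against 40.01, 85.9, 74.0, 61.5 and 58.9 in CD 1 to CD 5. The ratio of the first sum to the second was 4.90, 2.20, 1.25 and 4.45 in LP 1 to LP 4, against 2.28, 1.55, 0.798, 1.54 and 5.93 in CD 1 to CD 5. LP 1, LP 4 and CD 5 were high and LP 3 and CD 3 were low in this ratio, which overlapped between the diets.

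Summed per sample, the short CCA-ended fragments came to 337, 657, 616 and 568 normalized read counts in LP 1 to LP 4, against 3797, 1810, 988, 1636 and 1282 in CD 1 to CD 5. The long fragments came to 1285, 529, 366 and 1598 in LP 1 to LP 4, against 131, 219, 133, 156 and 408 in CD 1 to CD 5. The short sum was lower in every LP sample than in every CD sample, while the long sum of LP 3 was below that of CD 5. The group means were 544 ± 143 (SD, n = 4) in LP and 1902 ± 1106 (SD, n = 5) in CD for the short sum, 3.49-fold lower in LP, and 945 ± 592 in LP and 210 ± 117 in CD for the long sum, 4.51-fold higher in LP. All 20 members together came to 1497 ± 523 in LP and 2161 ± 1097 in CD and overlapped.

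The ratio of the short to the long sum was 0.262, 1.24, 1.68 and 0.356 in LP 1 to LP 4, against 28.9, 8.26, 7.42, 10.5 and 3.14 in CD 1 to CD 5. Among these selected fragments, long ones thus outweighed short ones in LP 1 and LP 4, and short ones outweighed long ones in the other 7 samples. Fragments of this tRNA that the study did not call as changed are missing from both sums. No scaling of the libraries enters this ratio, and the groups did not overlap. Both sums hold only tRFs selected as different between these same 9 samples. The direction of the ratio was given by that selection, and its separation follows in part from it. The difference of the mean log2 ratios (LP minus CD) was -3.76.

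The ratio was also taken within end B alone, with its short fragment, tRNA-Ala-AGC 16b, over the same 5 long fragments. It reuses members of both sums and is no separate evidence. tRNA-Ala-AGC 39a and 40 end at the same base as tRNA-Ala-AGC 16b, while tRNA-Ala-AGC 36, 38 and 39b stop earlier. tRNA-Ala-AGC 16b had 38.4, 110, 88.1 and 81.8 normalized read counts in LP 1 to LP 4, against 334, 292, 120, 254 and 145 in CD 1 to CD 5. Its level as a ratio to the 5 longer fragments was 0.0299, 0.207, 0.241 and 0.0512 in LP 1 to LP 4, against 2.55, 1.33, 0.900, 1.62 and 0.354 in CD 1 to CD 5. Every LP sample was below every CD sample. CD 5, the CD sample nearest to LP, was also the one with the most tRNA-Ala-AGC 36, 38 and 39b. Ends A, C and D have no fragment over 24 nt in the table, so this comparison rests on end B.

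**Figure D4:**
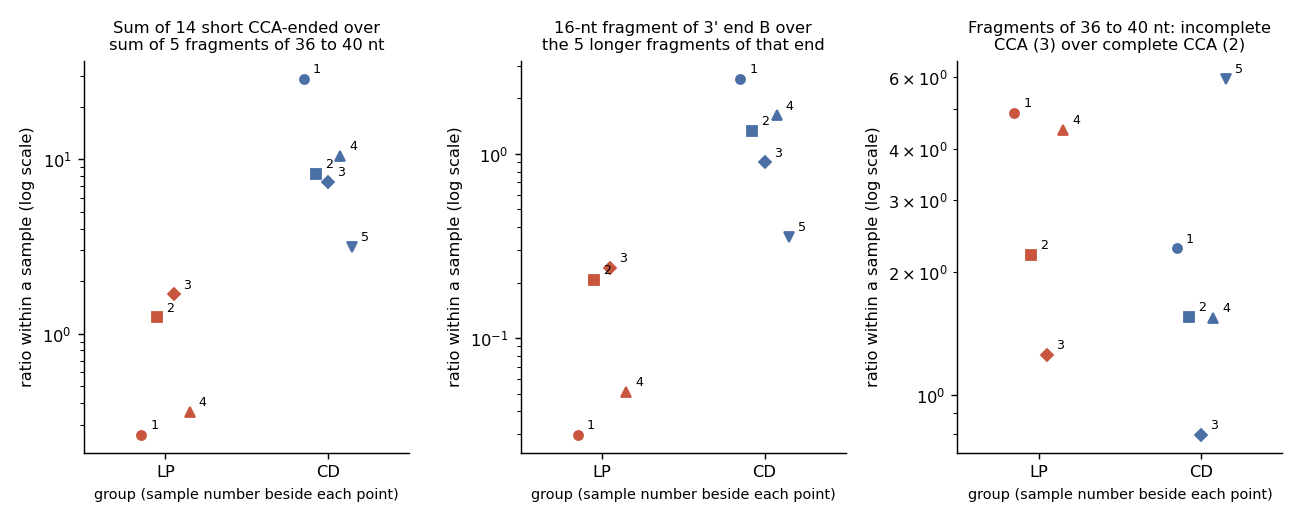
Ratios within each sample on log scales, LP left and CD right, with the sample number beside each point. The short to long ratio (left) and the ratio of the 16-nt to the longer fragments of 3' end B (middle) are lower in all 4 LP samples than in the 5 CD samples, whereas the ratio of long fragments with an incomplete to those with a complete CCA tail (right) overlaps between the groups.

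The other nuclear alanine hosts, tRNA-Ala-CGC and tRNA-Ala-TGC, gave 9 tRFs that are no members, and they divided by length in the same way. All 7 of their CCA-ended tRFs of 16 to 24 nt were called lower, with a median log2 fold change of -1.63. Their single long tRF, tRNA-Ala-CGC/tRNA-Ala-TGC 40, was called higher, with means of 79.8 ± 45.0 in LP (SD, n = 4) and 27.0 ± 9.95 in CD (SD, n = 5) in normalized read counts. Its log2 fold change was 1.57 ± 0.46 (SE). It has the length and the complete tail of tRNA-Ala-AGC 40, and is shown with the last 16 bases in capitals.

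tRNA-Ala-CGC/tRNA-Ala-TGC 40: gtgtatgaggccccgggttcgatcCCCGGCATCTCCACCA

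The mitochondrial alanine tRNA gave 1 tRF, of 32 nt, which was called higher (log2 fold change of 1.45 ± 0.44, SE). Among the 149 tRFs of all other nuclear hosts, 21 of the 26 CCA-ended ones of 16 to 24 nt were called lower, 1 higher and 4 not called, with a median log2 fold change of -1.39. Of their 74 tRFs of 25 to 40 nt, 58 were called higher and 16 lower. The division between CCA-ended tRFs of 16 to 24 nt and tRFs of 25 to 40 nt was thus shared with much of the table. Short tRFs of the other nuclear hosts that do not end in CCA are not covered by these counts, so no split by length alone is shown. The division did not extend to the longest tRFs. No alanine host had a fragment over 40 nt, and of the 26 of the other nuclear hosts 22 were tested, of which 21 were called lower and 1 higher, with a median log2 fold change of -2.02.

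The tRFs whose pattern over the 9 samples was most like the short sum were tRNA-Ala-CGC/tRNA-Ala-TGC 24, 22a and 19. Likeness was measured as the root mean square difference of log2 levels centred over the samples, which was 0.23 for the first 2 and 0.24 for the third, against a median of 0.97 over all tRFs that are no members. Most like the long sum were tRNA-Asp-GTC 30a (0.34), tRNA-Gly-CCC 37 (0.37) and a 32-nt fragment of the glutamate hosts tRNA-Glu-CTC and tRNA-Glu-TTC (0.35), against a median of 1.94. None of these 3 ends in CCA. All these tRFs share the libraries and the selection on diet.

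Other scalings of the libraries moved the log2 fold changes of both classes upward, so that falls became smaller and rises larger. Scaled by TMM over the table, which shifted the median log2 fold change of all tRFs by 0.70, tRNA-Ala-AGC 16a (-0.66, edgeR adjusted p = 0.0819) and tRNA-Ala-AGC 16b (-0.84, edgeR adjusted p = 0.0617) were not called. With median-of-ratios size factors from the table, a shift of 0.89, 7 of the 15 short fragments were called lower. All 5 long fragments were called higher under both, and no member changed direction.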

How the data were processed

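Small RNA was sequenced from islets of 4 LP and 5 CD rats after treatment that freed blocked RNA ends and removed base methylations. The authors' methods state that tRFs were annotated against nuclear and mitochondrial tRNA collections, that at least 2 reads were required in individual samples, and that DESeq2 was used. FastQC is named in the submitters' processing notes; which aligner, build and molecular tags were used is not given in the sources used here.

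As deposited by the authors, the table holds unscaled read counts per fragment, and columns headed normalized counts that hold log2 values, DESeq2's variance-stabilising transformation of scaled counts. A fit of that transformation (scipy 1.17.1, largest residual 5.7e-05) returned their size factors, 0.625 to 1.80. Columns with the authors' own fold change, adjusted p-value and direction were not used. Rows with the same sequence, which held identical values, were collapsed. Counts over the table ranged from 12556 to 40166 in LP and from 26166 to 34775 in CD, and depth of the whole libraries is unknown.

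Counts were tested with edgeR 4.0.16 (R 4.3.3), quasi-likelihood, on 181 of 192 tRFs past a minimum count of 10, with Benjamini-Hochberg adjustment over the table. SE is the log2 fold change divided by the square root of F. The test was also run on simulated counts with changes planted in a part of the tRFs. No selection was simulated, so that run does not bear on the calls made in this selected table. Values in every sample are given for the 3 most abundant members of each length and end class and for the largest rise and fall. tRNA-Ala-AGC 16b, 39b and 40 were added after their values were seen. Likeness used log2 of the level plus 1. Alternatives were other scalings, DESeq2 1.42.0, no filter, a 4-fold threshold, other length limits, members without shared hosts, a replicate block and leaving out each sample. The members and lists were chosen with earlier results of these data known. p-values cover the spread between these samples.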

Additional observations from a re-analysis of the deposited data

Results flagged for a closer look

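In each diet group, the 20 members, the 2 sums and their ratio were searched on a log scale for a highest or lowest sample set apart from the rest by a gap that made up most of the group's range. Of 46 sets of values, 7 were found, where an assumed chance share of 5% gives about 2.3. The sets are not independent, since the fragments overlap in sequence and share libraries, and some hold few counts. An excess over chance was therefore not tested.

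In LP, tRNA-Ala-AGC 17a was low in LP 1, with 46.6 normalized read counts where the other LP samples had 93.6 to 108 (gap of 0.833 of the range), and tRNA-Ala-AGC 19 was low in LP 1, at 6.85 against 18.6 to 20.03 (0.930), where LP 1 had 5 counts. tRNA-Ala-AGC 39b was low in LP 2, at 29.9 against 82.2 to 96.8 (0.861). tRNA-Ala-AGC 40 was high in LP 4, at 154 against 61.7 to 70.2 (0.858).

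In CD, tRNA-Ala-AGC 16c was low in CD 2, at 19.8 against 34.1 to 38.4 (0.820). tRNA-Ala-AGC 24 was high in CD 1, at 138 against 24.8 to 38.5 (0.743), and tRNA-Ala-AGC 38 was high in CD 5, at 120 against 19.2 to 31.9 (0.722).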

How the results depend on the processing

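No member changed direction under any alternative. Since each had been selected as different between these same samples, this is no independent evidence. The number called higher stayed at 5, except at the 4-fold threshold, where 4 were called, and the number called lower was 14 to 15 when each sample was left out, since a member missed the filter without any 1 CD sample, tRNA-Ala-AGC 17c without CD 3 and tRNA-Ala-AGC 22b without each of the others. With median-of-ratios size factors 7 members were lower (39 of all tRFs, against 102), and at 4-fold 8 were. The short sum had a log2 ratio of mean sums (LP over CD) of -1.80, which moved to -1.10 under TMM and -0.94 with median-of-ratios size factors; leaving out a sample gave -1.97 to -1.39. The median log2 fold change of the short CCA-ended members, -1.98, moved to -1.29 and -1.14 with these scalings and was -2.20 to -1.45 without a sample. The log2 ratio of the long sum was 2.17, with 2.80 under TMM, 2.99 with median-of-ratios size factors and 1.79 to 2.56 without a sample. The difference of the mean log2 ratios of short to long (LP minus CD), -3.76, was -4.20 to -3.31 without a sample and -3.58 within end B, an alternative added after seeing the data. Of the members listed with tRNA-Ala-AGC only, 5 were called higher and 11 lower. With these members alone, the log2 ratio of the short sum was -1.93 and the difference of short to long was -3.92.

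With the replicate block, all 20 members were called (5 higher, 15 lower). Same numbers in LP and CD mark no shared litter or day in the labels. Their deviations correlated at -0.40 to 0.04 over tRFs, and no LP sample correlated best with the CD sample of its own number, so the numbers were not taken as pairs. LP 1 had 1 to 5 counts for several short fragments, which limits the precision of its values.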
